A study of Mus musculus with 40 samples.

Results

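Fatty acid oxidation and the targets of the nuclear receptor PPAR-alpha were followed through 37 genes in liver and kidney of phenobarbital-treated and control mice. The genes were chosen by symbol in the probe annotation, with the older names Dci and Peci accepted for Eci1 and Eci2. Each was read from 1 probe set, the one with the highest mean MAS5 signal over the 40 arrays, and all 37 were found among the 18193 genes that have a probe set of 1 symbol. They fall into 8 roles, which are the carnitine shuttle, the mitochondrial beta-oxidation spiral, peroxisomal beta-oxidation, auxiliary enzymes for unsaturated fatty acids, acyl-CoA thioesterases, a ketone body enzyme, electron transfer to the respiratory chain, and PPAR-alpha targets outside oxidation.

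Long-chain fatty acids are activated to acyl-CoA in the cytosol and enter the mitochondrion as carnitine esters, where beta-oxidation removes acetyl-CoA units in repeated rounds of dehydrogenation, hydration, dehydrogenation and thiolysis. Peroxisomes run a parallel pathway for very-long-chain, branched and dicarboxylic acids. PPAR-alpha pairs with the retinoid X receptor RXR, binds fatty acids and fibrate drugs, and switches on many of these genes in fasting liver and in the proximal tubule of the kidney. Phenobarbital (PB) acts on liver mainly through another nuclear receptor, CAR, whose classical target is the cytochrome P450 gene Cyp2b10.

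The arrays came from 20 male B6C3F1/Crl mice, offspring of a C57BL/6 father and a C3H/He mother. They arrived aged 29 to 32 days, acclimatised for 5 days and were divided at random. The PB group (10 mice) drank water with 0.05% (w/v) PB freely for 28 days, and the control group (10 mice) drank water without it for the same time. One Affymetrix Mouse430_2 array was made from the liver and another from the kidney of each mouse, which gave the groups PB liver, control liver, PB kidney and control kidney with 10 animals each. Each animal is 1 replicate, and precision is set by having 10 of them in a group. A signal below is the MAS5 value, a linear intensity that the authors scaled to a common trimmed mean on each array. Probe sets bind with different strength, so signals of different genes are not ranked against each other.

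The labels of treatment and tissue held against the genes that define them. Cyp2b10 had a signal of 11482 ± 1067 in PB livers and 25.4 ± 9.84 in control livers (SD, n = 10 each), and its mean lay under 50 in both kidney groups. The hepatocyte marker Alb lay between 15657 and 25898 in PB livers, and the tubule marker Kap between 13557 and 21814 in kidneys of both groups. Some arrays stood apart. Kap was 234 in PB liver 17, 1230.2 in control liver 5 and 221.5 in control liver 3, against a median of 7.65 in PB livers and 9.25 in control livers, and Fabp4, a fat cell marker, was 872.5 in PB liver 20 and 775.6 in control liver 2 (median 203.95 in PB livers and 219.6 in control livers). Adipoq, another fat cell marker, was 168.6 in PB liver 20 (median 17.4 in PB livers). It was 30.6 in control liver 2 (median 24.75 in control livers), and its highest control liver was liver 3 (116.1). Alb was 1029.6 in PB kidney 19, and 416.1 to 922.8 in control kidneys 1, 3, 9 and 10, against a median of 119 in PB kidneys and 169.8 in control kidneys. In kidney, 9 of the 11 listed markers of white and brown fat had a probe set, and their summed signal ran from 1583.4 to 8392.6 (median 3061.55) in PB kidneys, against 1467.7 to 2155.7 (median 1603.55) in control kidneys. The sum exceeded every control kidney in 8 of 10 PB kidneys, all except PB kidneys 11 and 13. Of the 7 fat markers tested, 4 were called higher (Adipoq, Cidea, Ucp1 and Fabp4), beside 2.56% of all genes tested in kidney. Clock genes also differed with treatment in both tissues. Dbp, an output gene of the circadian clock, averaged 853 ± 818 in PB livers and 161 ± 134 in control livers, and 1014 ± 354 in PB kidneys against 428 ± 223 in control kidneys. Arntl, which peaks in the opposite phase, averaged 172 ± 43.1 in PB livers and 284 ± 44.6 in control livers, and 101 ± 24.9 in PB kidneys against 150.1 ± 37.8 in control kidneys. In whole tissue, fewer cells of a type and less RNA per cell cannot be told apart.

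A gene was tested where its mean signal reached 50 in either group compared, the level that the study's methods set. Log2 signals were compared with limma, and a gene was called at an adjusted p under 0.05 (Benjamini-Hochberg over all genes tested in that comparison, two-sided). In liver, 34 of the 37 genes were tested after PB treatment. Of these, 3 were called higher (Decr2, Acot12 and Hsd17b4) and 3 lower (Angptl4, Acot1 and Hadha). The called share was 17.6% of the 34 genes, beside 15.6% of all 9920 genes tested in liver (6.94% called higher and 8.7% called lower), so the group as a whole lay near the background. Its median log2 difference was -0.01, beside -0.02 over all genes tested, with 16 genes above 0 and 18 below. No gene of the group separated PB livers from control livers without overlap, beside 1.33% of all genes tested that did so as higher and 0.433% as lower.

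In kidney, 36 genes were tested, all except Fgf21. Of these, 7 were called higher (Acaa1b, Acaa2, Slc25a20, Acot3, Vnn1, Acot1 and Acot2) and 2 lower (Acot12 and Bdh1). That is 25% of the 36 genes, beside 4.46% of all 10048 genes tested in kidney (2.56% called higher and 1.9% called lower). The median log2 difference was 0.05, beside 0.01 over all genes tested, and 26 genes lay above 0 and 10 below. The largest difference in the group was 0.52 on the log2 scale, so these were shifts in genes that control kidneys also expressed. Both treatment comparisons rest on different animals for PB and control. With the log2 of the fat marker sum as a covariate 1 of the 9 kidney calls was kept (Acaa1b), although the estimates of Acaa1b (0.49), Acot1 (0.44), Acot2 (0.27), Acot3 (0.57) and Vnn1 (0.46) were larger than without it. Those of Slc25a20 (0.25), Acaa2 (0.22), Acot12 (-0.21) and Bdh1 (-0.16) were smaller. With log2 Dbp minus log2 Arntl as a covariate none of the 9 kidney calls and none of the 6 liver calls was kept. In kidney the estimates of Slc25a20 (0.32) and Acot2 (0.27) were then larger, that of Acaa1b was nearly as large (0.45), and those of Vnn1 (0.34), Acot1 (0.32), Acot3 (0.30), Acaa2 (0.16), Acot12 (-0.11) and Bdh1 (-0.12) were smaller. In liver those of Angptl4 (-1.18) and Hadha (-0.26) were larger in size and those of Acot1 (-0.75), Decr2 (0.17), Acot12 (0.16) and Hsd17b4 (0.06) smaller. A call lost in such a fit does not by itself show that the difference went with the covariate. These covariates also left few calls over all genes, 31 of 10048 with the fat marker sum and 2 of 10048 with Dbp and Arntl in kidney, and 295 of 9920 with Dbp and Arntl in liver.

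**Figure D1:**
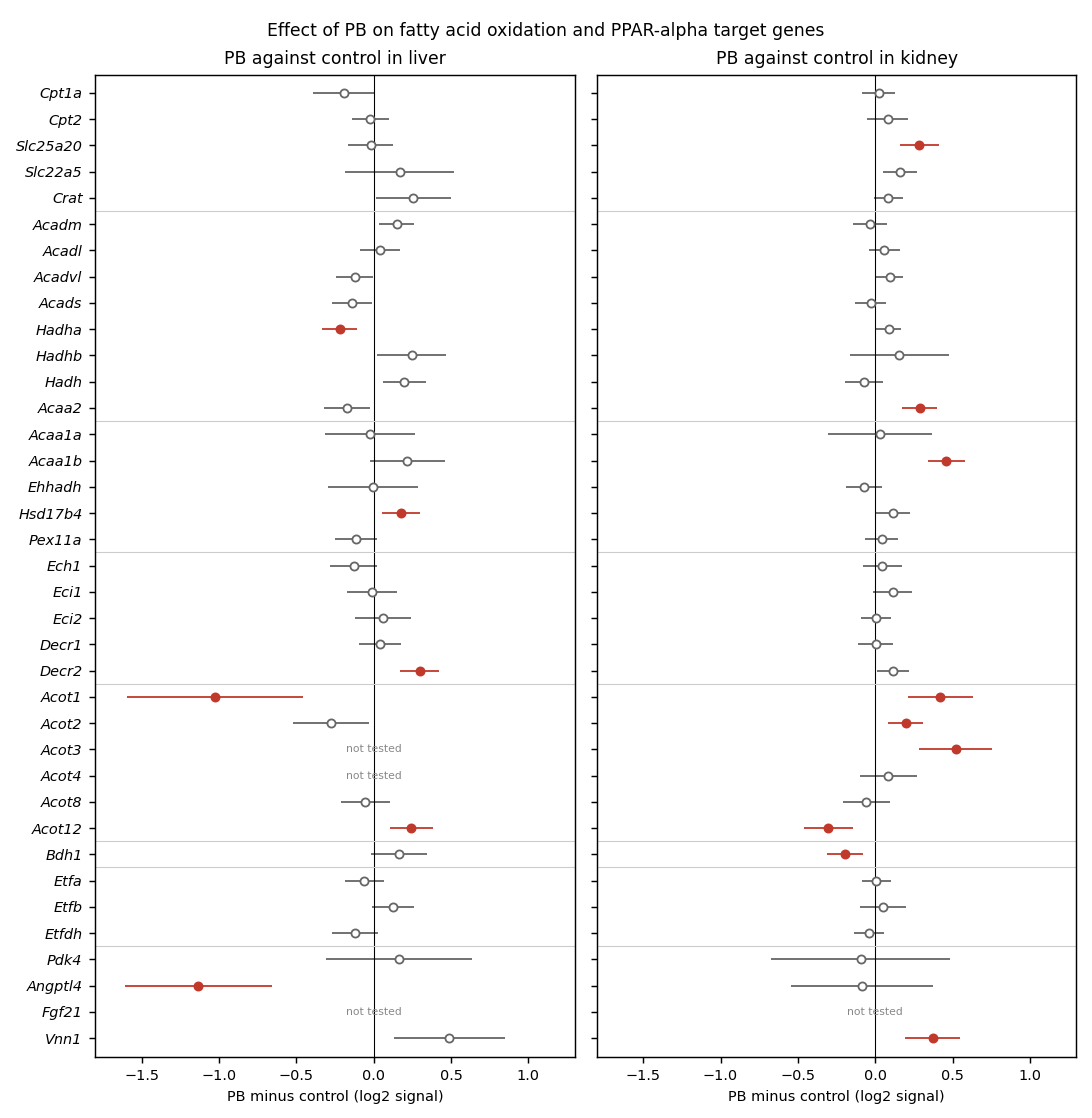
Difference of log2 MAS5 signal, PB minus control, for the 37 genes in liver (left panel) and kidney (right panel), grouped by role from the carnitine shuttle at the top to PPAR-alpha targets outside oxidation at the bottom. Points are limma estimates with 95% confidence intervals (10 PB and 10 control animals per tissue), and filled red points are the 6 genes called in liver and the 9 called in kidney, which have Acot1 and Acot12 in common with opposite signs.

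The carnitine shuttle carries acyl groups across the mitochondrial membranes. None of its 5 genes was called in liver. Cpt1a, the outer membrane transferase and the regulated step of entry, averaged 1311 ± 219 in PB livers and 1494 ± 224 in control livers, a log2 difference of -0.19 (SE 0.10, adjusted p = 0.193, limma), and 2 further probe sets of Cpt1a gave 0.10 and 0.31 and were not called either. Cpt2, the inner membrane transferase, averaged 1109.8 ± 79.3 in PB livers and 1129 ± 108 in control livers (-0.02). In kidney the carrier Slc25a20, which exchanges acylcarnitine for free carnitine across the inner membrane, was the 1 gene of this role that was called. Its signal was 698.4, 815.5 and 953.9 (lowest, median and highest of 10) in PB kidneys, against 559.6, 664.4 and 830.1 in control kidneys. The 5 highest PB kidneys lay above every control kidney and the groups overlapped below that. The log2 difference was 0.28 (SE 0.06, adjusted p = 0.00819, limma), and a second probe set gave 0.18 and was called too. In liver the same carrier averaged 1676 ± 157 on PB and 1704 ± 207 in controls, and the PB effect in liver minus that in kidney was -0.30 (SE 0.09, adjusted p = 0.0354), against -0.10 without a call for the second probe set.

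Slc22a5, the plasma membrane carnitine transporter OCTN2 that reclaims carnitine from urine, differed widely between the tissues. In PB mice its signal was 116.6, 169.1 and 228.5 in liver and 1823.6, 2124.95 and 2469.6 in kidney, and in control mice 89, 159.8 and 264 in liver and 1753.7, 1901.05 and 2176.6 in kidney. No liver came near a kidney. The liver minus kidney difference was -3.69 on the log2 scale in both PB and control mice (adjusted p = 1.69e-20 in PB mice and 2.86e-16 in control mice, limma). PB kidneys and control kidneys differed by 0.16 (adjusted p = 0.0921). Crat, the acetyl-CoA transferase of the shuttle, was also lower in liver, by -1.94 in PB mice and -2.11 in control mice.

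The mitochondrial spiral was read through 8 genes. The 4 acyl-CoA dehydrogenases differ in the chain length they take (Acadvl very long, Acadl long, Acadm medium, Acads short), Hadha and Hadhb are the subunits of the trifunctional protein, Hadh is the 3-hydroxyacyl-CoA dehydrogenase of medium and short chains, and Acaa2 is the thiolase of the matrix. In liver 4 of the 8 had higher and 4 lower estimates, and 1 was called. Hadha was 1136.5, 1263.45 and 1356.7 in PB livers, against 1206.5, 1473.3 and 1661.5 in control livers. The 4 lowest PB livers lay below every control liver, and none lay above the highest. Hadha was lower by a log2 difference of -0.22 (SE 0.06, adjusted p = 0.00819, limma). Hadh had the estimate nearest to a call among the others, 0.20 (adjusted p = 0.0502, limma). Its probe set ends in _x_at and can take up related transcripts, and its second probe set gave -0.01. Acadm gave 0.15 (adjusted p = 0.0642, limma).

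Hadha and Hadhb stand head to head on chromosome 5, and the 272 bases between their start sites serve as the upstream region of both. They are printed here because the estimates of the pair had opposite signs in liver (RefSeq, GRCm38.p6, chr5:30154981-30155252, plus strand, Hadhb read left to right and Hadha on the other strand).
Hadha and Hadhb, between start sites: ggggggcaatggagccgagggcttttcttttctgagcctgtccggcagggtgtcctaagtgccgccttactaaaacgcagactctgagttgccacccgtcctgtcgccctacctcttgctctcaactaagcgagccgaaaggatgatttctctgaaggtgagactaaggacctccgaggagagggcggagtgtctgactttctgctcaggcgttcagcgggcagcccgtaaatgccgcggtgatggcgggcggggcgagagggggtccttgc
Hadhb averaged 4012 ± 566 in PB livers and 3415 ± 675 in control livers, a log2 difference of 0.24 (SE 0.11, adjusted p = 0.125, limma) that was not called. This probe set ends in _x_at and can take up related transcripts, and the other probe sets of Hadhb gave -0.10 and -0.08. The opposite signs of the pair in liver therefore depend on the probe set that stands for Hadhb.

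Acaa2 differed most between the tissues in favour of liver. Its signal was 4653.4, 5809.5 and 6839.1 in PB livers against 729.8, 852.55 and 982.6 in PB kidneys, and 4840.2, 6638.1 and 7258.9 in control livers against 605.4, 698.25 and 773.7 in control kidneys. In kidney 8 of 10 PB animals exceeded all controls. The PB minus control difference there was 0.29 (SE 0.06, adjusted p = 0.00409). A second probe set gave 0.22, called in the fit on all probe sets but not in that on second probe sets (adjusted p = 0.0516, limma). The third gave 0.24 without a call. In liver the difference was -0.17 (SE 0.07, adjusted p = 0.113), and the PB effect in liver minus that in kidney was -0.46 (SE 0.09, adjusted p = 0.000963, limma). The liver minus kidney difference was 2.74 in PB mice and 3.20 in control mice.

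Acadvl and Hadha also responded differently in the 2 tissues. Acadvl was 2083.4, 2397.6 and 2655.3 in PB livers and 2152.4, 2614.65 and 2888 in control livers, whereas it was 1507.9, 1632.9 and 1797.1 in PB kidneys and 1412.7, 1540.8 and 1719.3 in control kidneys. Neither tissue had a call (-0.12 with adjusted p = 0.148 in liver, 0.09 with adjusted p = 0.230 in kidney). The difference of the 2 effects was -0.22 (SE 0.07, adjusted p = 0.0444), a call that held in 16 of the 40 fits with 1 array left out. Hadha in kidney was 794.3, 889.7 and 967.1 with PB and 780.3, 822.1 and 889.2 in controls, and its effect in liver minus that in kidney was -0.31 (SE 0.07, adjusted p = 0.00152), a call kept in all 40.

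Peroxisomal beta-oxidation was read through Acaa1a and Acaa1b, 2 peroxisomal thiolases of the mouse, Ehhadh and Hsd17b4, the L- and D-bifunctional enzymes, and Pex11a, which drives division of peroxisomes and is a marker of fibrate action in rodents. Acaa1b in kidney had the smallest adjusted p of all treatment comparisons in the set. Its signal was 3327.3, 4015.25 and 4496.7 in PB kidneys and 2444.8, 2811.3 and 3284.4 in control kidneys. Every PB kidney lay above every control kidney, which held for 0.159% of all genes tested in kidney. The log2 difference was 0.46 (SE 0.06, adjusted p = 9.21e-05, limma). PB kidneys 11 and 13, with fat marker sums in the control range, had signals of 4368.9 and 3327.3, both above all controls, and with the fat marker sum as a covariate the difference was 0.49 (adjusted p = 0.0134). With Dbp and Arntl as a covariate it was 0.45 (adjusted p = 0.0541).

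In liver Acaa1b was 7923, 11067.9 and 14513.2 with PB and 6762.3, 9944.1 and 12798.9 in controls, and its mean signal was 2.86 times that of kidney in PB mice and 3.42 times in control mice. The treatment difference of 0.22 (SE 0.12, adjusted p = 0.224) was not called, and the effect in liver minus that in kidney was -0.24 with an adjusted p of 0.300, so a difference of the PB effect between the tissues was not shown for this gene. Its close relative Acaa1a, read by a probe set ending in _x_at, gave -0.02 in liver and 0.03 in kidney. Hsd17b4 was 2405.2, 2781.1 and 3223.5 in PB livers and 2144.3, 2463.85 and 2978 in control livers. The difference was 0.17 (SE 0.06, adjusted p = 0.0459, limma), with 3 PB livers above all controls, and a second probe set of this gene gave -0.12. The probe set used ends in _x_at and can take up related transcripts. Its call was lost in 14 of the 20 fits with 1 liver left out and held without PB livers 11, 12 or 13 or control livers 5, 6 or 7. Of 18 other alternatives, 10 lost the call and 1, the second probe set, turned the sign. Ehhadh, one of the strongest responders to fibrates in rodent liver, averaged 1921 ± 402 in PB livers and 1939.7 ± 429.8 in control livers and did not pass the test in either tissue (-0.01 in liver, -0.07 in kidney). Pex11a, at 503 ± 45.9 in PB livers and 545 ± 54.7 in control livers, did not pass either (-0.11 in liver, 0.04 in kidney), although a second probe set of Pex11a gave -0.26 in liver and was called (adjusted p = 0.0418 in the fit on all probe sets).

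**Figure D2:**
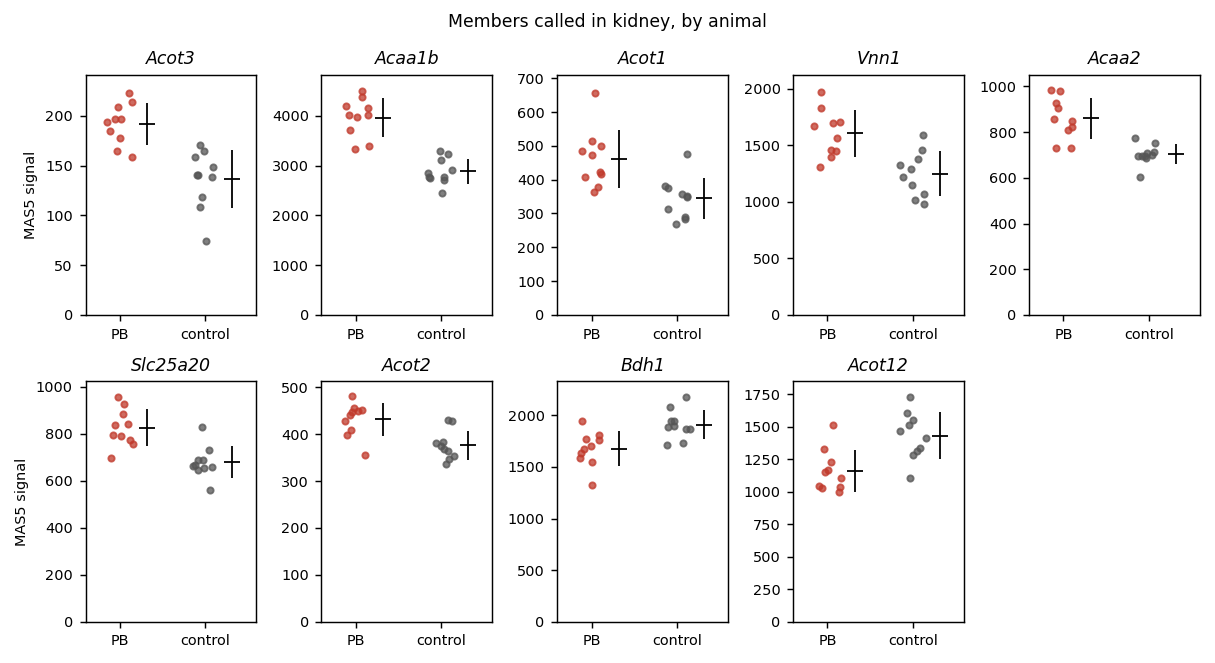
MAS5 signal of the 9 genes called in kidney, 1 point per animal, 10 PB kidneys left and 10 control kidneys right in each panel, with mean and SD beside the points and every axis starting at 0. Acaa1b is the panel in which the groups do not overlap, and Bdh1 and Acot12 are the 2 genes lower in PB kidneys.

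The auxiliary enzymes reshape the double bonds of unsaturated fatty acids so that they can enter the spiral. Decr2, the peroxisomal 2,4-dienoyl-CoA reductase, had the smallest adjusted p among the genes that were higher in PB livers. It was 665.4, 746.1 and 857.9 in PB livers and 495.9, 625.4 and 698 in control livers. All but 1 of the PB livers lay above the highest control. This was a log2 difference of 0.30 (SE 0.06, adjusted p = 0.00193, limma). In kidney Decr2 was 206.9, 225.05 and 261.7 with PB and 188.3, 207.4 and 224 in controls, a difference of 0.12 (adjusted p = 0.188). Its mean signal in liver was 3.37 times that in kidney in PB mice and 2.98 times in control mice.

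The mitochondrial reductase Decr1 was not called with the probe set used (0.04 in liver), and its second probe set gave 0.25 (adjusted p = 0.0480 in the fit on all probe sets). The isomerases Eci1 and Eci2 and the dienoyl-CoA isomerase Ech1 ranged from -0.13 to 0.06 in liver and from 0.01 to 0.11 in kidney without a call. Eci1 was higher in liver than in kidney (0.38 in PB mice, 0.50 in control mice), whereas Eci2 and Ech1 were lower (-0.28 and -0.83 in PB mice, -0.34 and -0.65 in control mice).

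Acyl-CoA thioesterases release the free acid from acyl-CoA. Acot1 (cytosol), Acot2 (mitochondria), Acot3 and Acot4 (peroxisomes) are encoded side by side within 72540 bases at chr12:83987861-84060400 (GRCm38.p6), Acot8 is a further peroxisomal enzyme, and Acot12 acts on acetyl-CoA in the cytosol. All 6 were lower in liver than in kidney in both PB and control mice. In kidney 3 of the 4 genes of the chromosome 12 cluster were called higher with PB. With all 40 arrays in 1 fit the estimates were the same, but none of these calls was kept. The adjusted p was then 0.446 for Acot1, 0.370 for Acot2 and 0.645 for Acot3 (limma). Apart from leaving out 1 array, 6 of 18 alternatives lost the call of Acot1 and 4 of 18 that of Acot3. Acot3 was 158.3, 195.1 and 222.4 in PB kidneys and 73.9, 140.5 and 170.3 in control kidneys. The 8 highest PB kidneys lay above all controls, and the log2 difference was 0.52 (SE 0.11, adjusted p = 0.0107, limma). This probe set ends in _s_at and can take up transcripts of its neighbours.

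Acot1 was 364.9, 447.45 and 657.6 in PB kidneys and 270.3, 349.25 and 476.4 in control kidneys. The highest PB value, in kidney 11, was well above the rest. The log2 difference was 0.42 (SE 0.10, adjusted p = 0.0183), and 0.41 (adjusted p = 0.0702) without PB kidneys 12, 15 and 17, which had the highest fat marker sums. Acot2 was 354.8, 443.55 and 481 in PB kidneys and 336.7, 371.4 and 429.9 in control kidneys. The call on its difference of 0.20 (SE 0.05, adjusted p = 0.0404) was lost in 16 of the 20 fits with 1 kidney left out and held without PB kidneys 12 or 18 or control kidneys 4 or 8. It was also lost in 12 of 19 other alternatives, and a second probe set of Acot2 gave 0.09 in kidney without a call. Acot4 was 142.5, 201.7 and 246 in PB kidneys and 141, 191.65 and 217.3 in control kidneys, a difference of 0.09 (95% confidence interval -0.10 to 0.27, adjusted p = 0.647). PB kidneys 11 and 13, with fat marker sums in the control range, exceeded all controls for Acot2 (449.8 and 450.8) and Acot3 (177.4 and 184.7). For Acot1, Acaa2, Slc25a20 and Vnn1, PB kidney 11 exceeded all controls (657.6, 808.8, 924.3 and 1976.1, in that order). PB kidney 13 lay within the control range for all of these (364.9, 731.6, 774.4 and 1462.9).

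The 100 bases before the start sites of Acot1, Acot2 and Acot3, the 3 genes of the cluster that were called in kidney, and of Acaa1b are printed with matches to CCAAT, or ATTGG on the other strand, in capitals (RefSeq, GRCm38.p6, each read along its gene). The start site that the promoter table gives for Acot4 lies inside the interval of its gene, so no upstream stretch is shown for it, and Acot3 has 2 start sites, of which the first is used.
Acot1, chr12:84009402-84009501, plus strand: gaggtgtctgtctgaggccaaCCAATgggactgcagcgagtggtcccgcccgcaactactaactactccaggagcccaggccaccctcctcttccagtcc
Acot2, chr12:83987761-83987860, plus strand: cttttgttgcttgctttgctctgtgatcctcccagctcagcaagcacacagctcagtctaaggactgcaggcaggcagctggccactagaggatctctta
Acot3, chr12:84052044-84052143, plus strand: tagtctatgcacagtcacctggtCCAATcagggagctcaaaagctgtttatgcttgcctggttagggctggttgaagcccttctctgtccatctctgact
Acaa1b, chr9:119157094-119157193, minus strand: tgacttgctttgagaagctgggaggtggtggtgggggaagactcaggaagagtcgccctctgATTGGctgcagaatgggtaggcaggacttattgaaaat
CCAAT on either strand was chosen after these windows had been read. It occurred in the last 100 bases before the start in 10 of 33 windows of the 37 genes (30.3%), beside 18.9% of all 32851 windows of the table. The 33 windows include that of Acot4 and both of Acot3. They also include other windows whose start site lies inside the gene, such as those of Eci2 and Acot8. The PPAR-RXR element was searched on both strands in whole windows, from 250 bases before to 50 after the start, as AGGTCA repeated with 1 base of any kind between the copies and, more loosely, as AGGNCA repeated in the same way, which takes in every match of the stricter form. The strict form was found in 0.0396% and the loose form in 0.381% of all windows, and neither in the 33 windows of the 31 genes that the table holds. A match describes the letters of a window and is neither a site nor a cause, and its absence says nothing of the receptor.

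In liver the cluster lay near the level at which the study took a probe set as not expressed. Acot1 was 16, 34.7 and 54 in PB livers and 25.2, 75.3 and 117.9 in control livers. PB livers were mostly under 50 and 2 lay below every control. The PB mean was 35.6, and with that mean set to 50 the control mean was 1.46 times as high, a ratio of means given without an error. The log2 difference as measured was -1.03 (SE 0.28, adjusted p = 0.0131, limma), opposite in sign to kidney, and the effect in liver minus that in kidney was -1.45 (SE 0.30, adjusted p = 0.00119). With signals under 50 set to 50, these were -0.50 and -0.92. The 2 highest controls were control livers 5 (117.9) and 3 (112.8), which also had the high Kap signals, and without them and PB liver 17 the liver difference was -0.89 (adjusted p = 0.0422). Acot2 was 53.8, 79.4 and 107.1 in PB livers and 65.6, 93.75 and 112.8 in control livers. The difference of -0.28 (adjusted p = 0.117) was not called, but the effect in liver minus that in kidney was (-0.47, SE 0.13, adjusted p = 0.0134). The second probe set of Acot2 averaged under 50 in both liver groups and gives no direction there. Acot3 and Acot4 were under 50 in both liver groups and were not tested there.

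Against kidney, Acot1 in liver was at least 9.23-fold lower in PB mice and 2.35 lower on the log2 scale in control mice. Acot3, at 2.7, 5.1 and 34.5 in PB livers and 3.8, 15.2 and 31.4 in control livers, was at least 3.83-fold lower in PB mice and at least 2.73-fold lower in control mice. Acot4, at 21.1, 43.5 and 79.8 in PB livers and 17.8, 38.5 and 49 in control livers, was at least 3.91-fold lower in PB mice and at least 3.68-fold lower in control mice. These bounds set a liver mean under 50 to 50.

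Acot12 moved in opposite directions. It was 677.6, 774.3 and 849.2 in PB livers and 534.1, 642.95 and 818 in control livers, a log2 difference of 0.24 (SE 0.07, adjusted p = 0.0143, limma), and a second probe set gave 0.34 and was called as well. In PB kidneys it was 1001.3, 1129.4 and 1516.5, against 1109.9, 1444.2 and 1726.7 in control kidneys. The kidney difference was -0.30 (SE 0.08, adjusted p = 0.0236), with 5 PB kidneys below all controls, and the second probe set gave -0.14 without a call. PB kidneys 11 and 13, with fat marker sums in the control range, had signals of 1328.5 and 1227.6, inside the range of the controls, and without PB kidneys 12, 15 and 17 the difference was -0.29 (adjusted p = 0.100). The effect in liver minus that in kidney was 0.55 (SE 0.10, adjusted p = 0.000390), and both probe sets gave a call for it. Acot8 was not called in either tissue (-0.05 in liver, -0.06 in kidney).

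**Figure D3:**
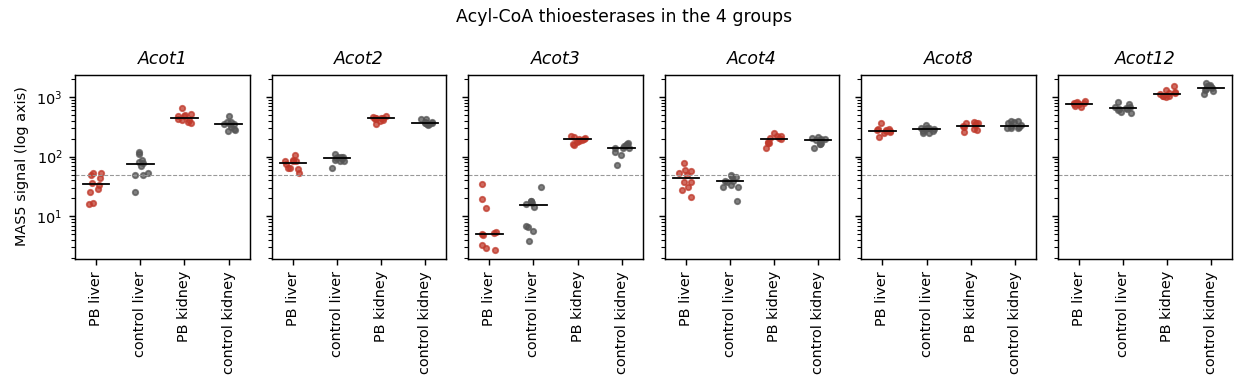
MAS5 signal of the 6 acyl-CoA thioesterases on a logarithmic axis, 1 point per animal (10 per group), with black bars at the group medians and a dashed line at 50. Acot3 and Acot4 lie mostly under the line in liver and above it in every kidney, and Acot1 and Acot12 change in opposite directions in the 2 tissues.

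Bdh1, the mitochondrial enzyme that interconverts acetoacetate and 3-hydroxybutyrate, was lower in kidney after PB treatment. It was 1321.1, 1686.8 and 1948.1 in PB kidneys and 1708.7, 1889.75 and 2174.8 in control kidneys. The 6 lowest PB kidneys lay below all controls, PB kidneys 11 and 13 among them (1589.3 and 1676). The log2 difference was -0.19 (SE 0.06, adjusted p = 0.0498, limma), and the call held in 3 of the 20 fits with 1 kidney left out, those without PB kidney 20 or control kidneys 5 or 6. It was also lost in 15 of 19 other alternatives, and a second probe set gave -0.04 without a call. In liver Bdh1 was 1898.9, 2505.7 and 2865 with PB and 1482.3, 2325 and 2579.7 in controls, which gave 0.17 without a call (adjusted p = 0.207). The PB effect in liver minus that in kidney was 0.36 (SE 0.11, adjusted p = 0.0278). That call was lost when each array was centred on its median and without PB kidneys 12, 15 and 17. The second probe set gave 0.18 for this difference, without a call.

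Etfa and Etfb, the subunits of the electron transfer flavoprotein that takes electrons from the acyl-CoA dehydrogenases, and Etfdh, which passes them to ubiquinone, had no call in either tissue. Their differences ranged from -0.12 to 0.12 in liver and from -0.04 to 0.05 in kidney. All 3 were higher in liver than in kidney, by 0.26 to 0.32 in PB mice and by 0.19 to 0.39 in control mice. Pdk4, Angptl4, Fgf21 and Vnn1 are PPAR-alpha targets that lie outside the oxidation pathway.

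Angptl4, a secreted inhibitor of lipoprotein lipase that rises on fasting, was lower in PB livers. It was 203.2, 311.75 and 624.1 in PB livers and 332.8, 690.1 and 1169.3 in control livers. The 7 lowest PB livers lay below every control liver. The highest control was liver 2 (1169.3) and PB liver 20 was among the highest on PB (616), the livers with the high Fabp4 signals. PB liver 20 was also the highest of its group in Adipoq, and control liver 2 was not. PB minus control was -1.13 on the log2 scale (SE 0.23, adjusted p = 0.00136, limma), and it was the 1 gene of the group that also passed the study's own thresholds of fold and p in liver. Leaving out any 1 liver gave -1.25 to -1.05, called each time, and with Dbp and Arntl as a covariate the estimate was -1.18 (adjusted p = 0.0640). In kidney Angptl4 was 144.4, 231.35 and 481.5 with PB and 141.1, 270.8 and 450.9 in controls (-0.09, adjusted p = 0.867). The PB effect in liver minus that in kidney was -1.05 (SE 0.34, adjusted p = 0.0457), kept in 16 of the 40 fits with 1 array left out. The tissue difference, 1.43 in control mice (adjusted p = 5.31e-06), was 0.39 in PB mice (adjusted p = 0.127). Without PB kidneys 12, 15 and 17 it was 0.61 in PB mice and was called (adjusted p = 0.0220), and it was called with quantile normalization too.

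Fgf21, the hepatokine of fasting, was at 5.6, 27.2 and 46.4 in PB livers and 31.2, 47.85 and 87.3 in control livers. Both means lay under 50, at 27.0 ± 13.3 with PB and 49.1 ± 17.6 in controls, so it was not tested, and with no filter the adjusted p was 0.0554 (limma). The 5 lowest PB livers lay below all controls. Pdk4, the kinase that holds back pyruvate oxidation when fat is burnt, averaged 80.3 ± 33.3 in PB livers and 71.3 ± 28.4 in control livers, a difference of 0.17 (95% confidence interval -0.31 to 0.64, adjusted p = 0.674). In kidney it was 99.5, 201.75 and 574.3 with PB and 145.2, 233.25 and 468.5 in controls, and the groups overlapped almost fully.

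Vnn1, a pantetheinase that recycles the coenzyme A precursor pantothenate, was higher in PB kidneys. The signals were 1311.1, 1616.9 and 1976.1 in PB kidneys and 983.7, 1254.65 and 1588.5 in control kidneys, with 5 PB kidneys above all controls. PB minus control was 0.37 on the log2 scale (SE 0.08, adjusted p = 0.0144, limma), and a second probe set gave 0.35 without a call. In liver Vnn1 was 157.1, 199.75 and 332.4 with PB and 72.8, 177.9 and 221.5 in controls, a difference of 0.49 (SE 0.17, adjusted p = 0.0590) that did not pass. Liver was lower than kidney by -2.88 in PB mice and -3.00 in control mice.

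**Figure D4:**
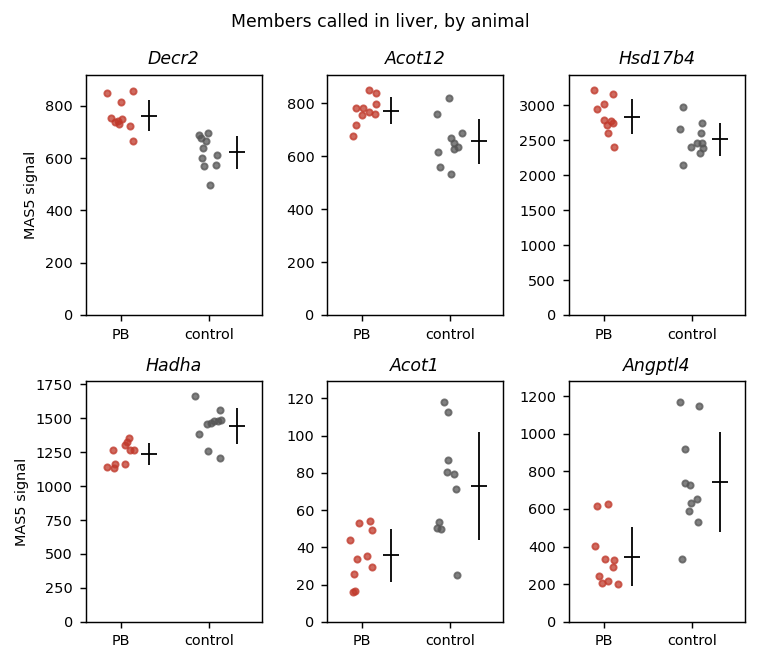
MAS5 signal of the 6 genes called in liver, 1 point per animal, 10 PB livers left and 10 control livers right in each panel, with mean and SD beside the points and every axis starting at 0. The groups overlap in all 6 panels, by a single PB liver for Decr2, and most PB livers lie under 50 for Acot1.

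In PB mice 32 of the 36 genes tested differed between liver and kidney (14 higher and 18 lower in liver), which is 88.9% beside 83.0% of the 11029 genes tested (36.3% higher and 46.7% lower). In control mice 15 were higher and 17 lower, again 88.9%, beside 80.8% of 10920 genes (36.5% higher and 44.2% lower). Liver and kidney did not overlap for 8 genes higher and 12 lower in liver in PB mice, beside 21.0% and 29.6% of all genes, and for 7 higher and 13 lower in control mice, beside 20.2% and 27.9%. These shares lay near the background, and the 2 counts come from different animals. Among the 5 genes with the largest differences towards liver in control mice, beside Acaa2, Acaa1b, Decr2 and Angptl4, was Slc25a20, at 1339.2, 1693.05 and 1949.1 in PB livers and 1356.3, 1731 and 1971.1 in control livers, 1.02 above kidney on the log2 scale in PB mice and 1.33 in control mice. The 5 largest measured differences towards kidney were those of Slc22a5, Acot3, Vnn1, Acot4 and Acot1. Signals of the steps did not lean to one tissue: of the spiral genes Acaa2, Hadha, Hadhb and Acadvl were higher in liver in both treatment groups and Acadm, Acadl and Acads lower, whereas Hadh was lower in control mice and not called in PB mice, with Acadm at 3795 ± 274 in PB livers against 8777 ± 575 in PB kidneys.

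The PB effect differed between the tissues for 9 of the 36 genes, 25% beside 8.83% of the 11193 genes tested. For 2 of them, Acot12 and Bdh1, the effect was higher in liver (beside 4.02% of all genes), and for 7 it was lower (Acaa2, Acot1, Hadha, Acot2, Slc25a20, Acadvl and Angptl4, beside 4.81%). Since the animals of both tissues are the same, a second fit took animal as a fixed block, and it called the same 9 genes.

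Other genes of lipid oxidation, uptake and PPAR signalling were counted in 7 lists that do not hold the 37 genes. In liver 94 of their genes were tested, with 8 called higher and 12 lower, 20 of 94 beside 15.6% of all genes tested, and a median log2 difference of 0.04, beside -0.02. In kidney 99 were tested, with 12 higher and 8 lower, 20 of 99 beside 4.46% of all genes tested, and a median of 0.01, as over all genes. Among 10 receptors and partners tested in liver, Ppard and Rxra were lower. Ppard, the relative of PPAR-alpha found in most tissues, averaged 33.3 ± 13.0 in PB livers and 74.3 ± 22.6 in control livers, at least 1.49-fold lower (measured log2 difference -1.24, adjusted p = 0.00210, limma). In kidney it was lower as well, at 85.5 ± 14.3 with PB and 189 ± 53.8 in controls, with every PB kidney below every control kidney and a difference of -1.11 (adjusted p = 9.21e-05). Groups without overlap in this direction occurred in 0.0796% of all genes tested in kidney. Ppara itself was not called, at 824 ± 199.8 in PB livers against 1057 ± 283 in control livers (-0.35, adjusted p = 0.123) and at 416 ± 80.4 in PB kidneys against 435 ± 66.9 in control kidneys.

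Of 22 further PPAR-alpha targets tested in kidney, 7 were higher and 1 lower, beside 2.56% and 1.9% of all genes tested. Cyp4a14, a fatty acid omega-hydroxylase, averaged 174 ± 89.7 in PB kidneys and 40.3 ± 13.2 in control kidneys, at least 3.48-fold higher (log2 difference 1.96, adjusted p = 0.000178, limma), with 9 of 10 PB kidneys above all controls. Plin4, a lipid droplet coat protein that fat cells make in quantity, was called higher at 50.1 ± 29.5 in PB kidneys and 20.6 ± 9.32 in control kidneys, with the control mean under 50 and the PB mean at it. Cyp4a12a, the male-typical omega-hydroxylase of kidney, was lower, at 3959 ± 432 with PB and 5025 ± 538 in controls (-0.34). In liver 20 of this list were tested, with 1 higher and 3 lower, beside 6.94% and 8.7% of all genes tested. Lpin1, a phosphatidate phosphatase and coactivator of PPAR-alpha, was lower with -1.45 (322 ± 96.1 in PB livers, 944 ± 497 in control livers), Gpd1, the cytosolic glycerol-3-phosphate dehydrogenase, with -0.39, and the lipid droplet protein Plin2 with -0.37.

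In the list of uptake and activation, 15 genes were tested in each tissue and 2 were higher and 2 lower in each. Over all genes tested, 15.6% were called in liver and 4.46% in kidney, which also stand beside the other counts of this paragraph. Fabp1, the fatty acid binding protein of liver, gave 1.13 in kidney (286 ± 147 with PB, 122 ± 45.8 in controls), the acyl-CoA synthetase Acsm3 -0.42 and Fabp3 0.29. In liver the largest were Acsl5 (-0.45) and Fabp2 (-0.33), which were lower, and the medium-chain synthetase Acsm5 (0.29), which was higher. Of 18 other beta-oxidation and malonyl-CoA genes in liver Acacb, whose product malonyl-CoA inhibits Cpt1a, was lower (-0.81, 188 ± 96.5 with PB and 300.4 ± 82.3 in controls), as was Echdc2 (-0.30), and none was higher. Of 20 in kidney Acaca (0.60) and the coenzyme A carrier Slc25a42 (0.31) were higher and none was lower.

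The called shares of all genes tested, 15.6% in liver and 4.46% in kidney, stand beside each count of this paragraph. The peroxisome list held 20 tested genes in each tissue. In liver 4 were higher and 1 lower, among them the membrane protein Pxmp4 with -0.84, the coenzyme A hydrolase Nudt19 with 0.29 and the transporter Abcd3 with 0.28. In kidney Nudt7 was higher (0.30) and Pex11g lower (-0.32). Among other thioesterases Them4 was higher in liver (0.62, 1 of 5 tested) and Acot9 lower in kidney (-0.27, 1 of 6). Of 6 ketone body genes, Acat1 (-0.27) and the monocarboxylate transporter Slc16a1 (-0.34) were lower in liver, and Slc16a1 (-0.43) and Slc16a6 (-0.45) in kidney, with none higher in either tissue.

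Genes of the fasting and insulin response were counted as a separate list. Of 8 tested in liver, 4 were lower and none higher, beside 8.7% of all genes called lower. Igfbp1, which insulin represses, averaged 603 ± 591 in PB livers and 2857 ± 2170.2 in control livers (-2.47), G6pc, the glucose-6-phosphatase of gluconeogenesis, 1436 ± 623 in PB livers and 2594 ± 1044 in control livers (-0.86), and the insulin receptor substrate Irs2 34.5 ± 21.7 in PB livers and 74.1 ± 28.8 in control livers, at least 1.48-fold lower. In kidney Srebf1 was the 1 gene called of 7 tested and was higher (0.48). Of the clock genes, 4 of 12 tested were higher and 2 lower in liver, and 5 of 13 higher and 2 lower in kidney. Over all genes tested, 15.6% were called in liver and 4.46% in kidney. The part of feeding state in the results for the 37 genes was not tested, and that of the clock was not tested beyond the covariate fits above.

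Between animals, the genes of the set that respond to fasting did not vary together past the threshold. Cpt1a, Pdk4, Angptl4, Vnn1 and Acot1 were compared in 10 pairs over the 20 livers after the group mean was removed (permutation test, 100000 resamples). The largest was Cpt1a with Vnn1, at Pearson's r = 0.46 (permutation p = 0.0438, adjusted 0.395) and Spearman's rho = 0.46 (permutation p = 0.0458, adjusted 0.458), which was 0.56 without the 2 livers farthest in Cpt1a, 0.60 within PB livers and 0.36 within control livers.

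**Figure D5:**
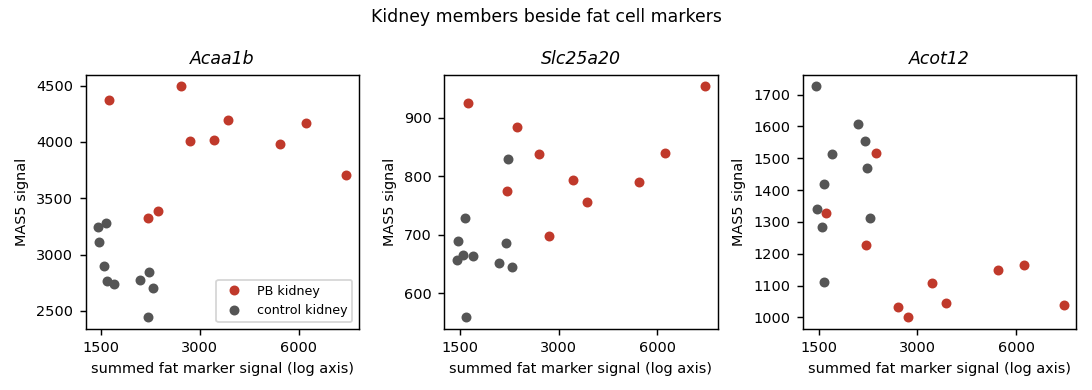
MAS5 signal of Acaa1b, Slc25a20 and Acot12 in each kidney against the summed signal of the fat cell markers (logarithmic axis), with 10 PB kidneys in red and 10 control kidneys in grey. Acaa1b is above all controls at every fat marker level, including PB kidneys 11 and 13 in the control range, whereas the 2 PB kidneys in that range lie among the controls for Acot12. For Slc25a20, PB kidney 11 lies above all controls and PB kidney 13 lies among them.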

How the data were processed

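Liver and kidney RNA of 20 mice was hybridised to 40 one-colour Affymetrix Mouse430_2 arrays. The deposited values are MAS5 intensity values on a linear scale, which the authors made in GCOS and scaled so that every array had a trimmed mean of 150. No other normalization between arrays is given in the sources used here. Array medians ran from 30.0 to 37.2. MAS5 subtracts mismatch signal, so low values are noisy.

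Of 45037 probe sets, 34945 had 1 gene symbol, 932 several and 9160 none in the platform annotation, and 34741 were matched to the gene table. Each gene was read from its brightest probe set over the 40 arrays and tested where its mean reached 50 in either group compared, the study's filter. Signals under 1 were set to 1 and log2 values fitted with limma 3.58.1 in R 4.3.3 (lmFit, eBayes with trend). P-values were adjusted by Benjamini-Hochberg over all genes tested, with calls at 0.05. The 5 comparisons were PB against control in each tissue, liver against kidney in each treatment, and the PB effect in liver minus that in kidney. A mean under 50 was set to 50 for "at least" folds. The procedure was tested on simulated data.

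The 37 genes and all lists were chosen with earlier results of these data known. Genes given with lowest, median and highest signal are those called for treatment or for the difference of the PB effect, and the 5 genes on each side with the largest tissue difference in control mice. Other lists name up to 3 called genes with the largest change. Donor numbers in the labels tie the liver and kidney of 1 animal. Over 8398 genes the correlation of deviations was 0.0986 (median, -0.0879 to 0.238) for the same animal and -0.00424 for different animals. Values for the same animal ran from -0.0879 to 0.147 in PB mice and from 0.0741 to 0.238 in control mice. The animal's own kidney was the best match for 11 of the 20 livers. Among PB mice this held for animals 11 and 12 only, and among control mice for all except animal 9. The pairing in PB mice thus rests mainly on the labels.

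The study's own rule was a t-test with a 1.5-fold minimum. By the methods' t-test on linear signals, 225 genes in liver and 31 in kidney passed its thresholds of fold and p, and 1448 in liver and 310 in kidney passed after Benjamini-Hochberg adjustment (on log2 signals 1461 and 343). Alternatives were the filter, floors, an offset of 16, quantile normalization, median centring, other probe sets, other tests, all 40 arrays in 1 fit, array number as covariate, leaving out each array and an animal block. Fits with covariates and without arrays that stood apart were chosen after seeing the data. Protein identity of the paralogs was not analysed here. Python 3.11.15 with SciPy 1.17.1 and matplotlib 3.10.9 was used for the rest.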

Additional observations from a re-analysis of the deposited data

Results flagged for a closer look

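Of 140 groups of 10 animals examined (the genes tested in that tissue, in each treatment), 10 held a sample whose gap to its neighbour exceeded Dixon's critical value. Chance alone places about 1 in 20 groups past that limit. Control liver 2 was the low value for Bdh1 (1482.3), Decr1 (1469.5) and Etfdh (1495.4), and PB liver 14 was the high value for Acot8 (364.6) and PB liver 13 for Etfb (6062.5). In kidney, Acot1 was high in PB kidney 11 (657.6) and Etfa in PB kidney 14 (3462.8). Control kidney 4 was high for Pex11a (602.5) and Etfdh (1958.1), and control kidney 2 low for Acaa2 (605.4).

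For 9 genes the PB effect differed between liver and kidney by the test of the difference itself (limma, 40 arrays). On the log2 scale, the effect in liver minus that in kidney was 0.55 for Acot12 and 0.36 for Bdh1. It was -0.22 for Acadvl, -0.30 for Slc25a20, -0.31 for Hadha, -0.46 for Acaa2, -0.47 for Acot2, -1.05 for Angptl4 and -1.45 for Acot1. The mean of Acot1 was under 50 in PB livers, and with signals under 50 set to 50 its value was -0.92. The sum of the fat cell markers moved with treatment in kidney, and its part in these differences was not tested apart from the fit without PB kidneys 12, 15 and 17. In that fit Acadvl, Slc25a20, Bdh1 and Angptl4 lost their calls.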

How the results depend on the processing

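The counts of called genes depended most on the probe set, the covariates and the threshold, and the cause was not tested. With the second brightest probe set, which fewer of the 37 genes have, 1 gene was higher and 1 lower in liver with PB, 1 higher and 0 lower in kidney, 6 higher and 10 lower in liver against kidney in PB mice, 5 higher and 9 lower in control mice, and 1 higher and 2 lower in the difference of the PB effect. That probe set also turned the direction of Hsd17b4 in liver (-0.12) and of Acot2 in the difference of the PB effect (0.11), where it averaged under 50 in both liver groups and so says nothing of direction. By the study's thresholds of fold and p, 0 genes were higher and 1 lower in liver and 0 higher and 0 lower in kidney. With all 40 arrays in 1 fit, 7 were higher in liver, and 3 higher and 1 lower in kidney. The kidney count of 2 lower genes was 1 with no filter, signals under 50 set to 50, quantile normalization, all probe sets or array number as covariate. It was 0 with median centring, the methods' t-test on log2 or linear signals, and Welch's test. The difference of the PB effect had 4 lower genes with no filter and 1 higher gene with median centring, which moved the median of all genes in liver against kidney to -0.24 in PB mice, where it was -0.12 as reported.

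Of the alternatives chosen after seeing the data, log2 Dbp minus log2 Arntl as covariate left 0 higher and 0 lower in liver and 0 higher and 0 lower in kidney. The fat marker sum as covariate left 1 higher and 0 lower in kidney. Calls were lost with estimates that were larger as well as smaller: with the fat marker sum, Acot1, Acot2, Acot3 and Vnn1 in kidney had larger estimates and Slc25a20, Acaa2, Acot12 and Bdh1 smaller ones. With Dbp and Arntl, Slc25a20 and Acot2 in kidney and Angptl4 and Hadha in liver had estimates larger in size, and the other called genes smaller ones. Without PB kidneys 12, 15 and 17 there were 0 lower in kidney, and 1 higher and 4 lower in the difference of the PB effect. Leaving out 1 array at a time gave 2 to 5 higher and 3 to 7 lower genes in liver, the most without PB liver 12 and without control liver 2. It gave 6 to 8 higher and 1 to 2 lower in kidney. In liver against kidney it gave 14 higher and 16 to 18 lower in PB mice and 14 to 15 higher and 17 to 18 lower in control mice, and in the difference of the PB effect 2 to 3 higher and 4 to 8 lower, with 4 lower without control livers 4 or 9, PB kidney 12 or control kidney 5.

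With the animal as a fixed replicate block, liver against kidney had 14 higher and 18 lower genes in PB mice and 15 and 18 in control mice, and the difference of the PB effect 2 higher and 7 lower. A random block gave 3 higher and 7 lower there, with Hadh added, so the pairing removed none of the calls on the treatment difference. Over all single-gene values and alternatives, 1311 of 1513 kept direction and side of the threshold, 198 lost the call, 2 gained one and 2 turned direction. That total pools fits with 1 array left out, which share most arrays with the main fit, and the large tissue differences. It therefore overstates how well the treatment calls held. Apart from leaving out 1 array, alternatives kept the kidney call of Bdh1 in 4 of 19, of Acot2 in 7 of 19 and of Acaa1b in 16 of 18. Genes near the signal of 50, such as Acot1 in liver, are limited by background.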
